A study of Homo sapiens with 2 samples.

Results

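MiR-221 and miR-222 are 2 microRNAs (miRs) made from neighbouring hairpins on the X chromosome. Small RNA was sequenced from parental K562 cells, a human chronic myelogenous leukemia line grown in standard medium, and from K562/ADM, an adriamycin-resistant variant raised from K562 by rising doses of adriamycin (ADM) and then kept in 1000 ng/mL of it. There was 1 library for each line, so that no value has a replicate and a difference here is one between 2 libraries, not between resistant and parental cells in general. The rows of the deposited table were kept when their name, without the species prefix, the asterisk and the arm, read miR-221 or miR-222 in either case of letters. This left 4 of the 934 names: miR-221, miR-221*, mir-221* and miR-222. In miR-221* the asterisk marks the strand opposite the annotated mature miR, and what sets mir-221* with a small r apart from it is not stated in the sources used. MiR-222* was not analysed here.

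A hairpin precursor can release a small RNA from each of its arms, and a strand that is loaded into an Argonaute protein represses mRNAs that pair with its seed, the bases from 2 to 8. MiR-221 and miR-222 are known as repressors of KIT, the receptor of stem cell factor, and of CDKN1B, an inhibitor of the cyclin-dependent kinases that halts the cell cycle. Both miRs are known to decline as blood progenitors mature along the erythroid path, and both are abundant in many solid tumors. K562 cells are erythroid-leukemic and carry the BCR-ABL1 fusion kinase.

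The sequences of both mature miRs are shown because they share the seed through which they are grouped as 1 family. They are the RefSeq entries for the 3' arms, the strands listed here as miR-221 and miR-222, with the seed in capitals.

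miR-221-3p: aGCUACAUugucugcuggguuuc

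miR-222-3p: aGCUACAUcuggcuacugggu

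The first 8 bases were identical and 11 of the 21 bases that could be laid side by side without a gap were the same, so that the strands differ downstream of the seed. Of the 2370 human mature miRs in RefSeq, only these 2 carry the seed GCUACAU. On GRCh37, miR-221-3p lies at chrX:45605608-45605630 and miR-222-3p at chrX:45606442-45606462, both on the minus strand. MIR221 (45605585 to 45605694) and MIR222 (45606421 to 45606530) are hairpins of 110 bases and 726 bases lie between them. Both fall in an intron of the lncRNA gene MIR222HG (transcript ENST00000602461.1), and 24 bases of the MIR221 hairpin overlap an exon of another transcript of that gene (ENST00000688264.2). The mature strands start at base 65 and base 69 of their hairpins, which is on the 3' side of both.

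The best-known targets are shown next, because their 3'-UTRs hold the full complement of the shared seed. Sites were read on the mRNA strand of the longest annotated 3'-UTR of each gene as ATGTAGCA, or with one end base fewer as ATGTAGC or TGTAGCA, which lie within it. Capitals mark the site, and each stretch is from GRCh37.

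KIT site at base 1030 of the 3'-UTR, chr4:55605742-55605771, plus strand: tttggattcttATGTAGCAggaaataaagt

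KIT site at base 1959, chr4:55606671-55606700, plus strand: taaatattgaaATGTAGCAataatgtcttt

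CDKN1B site at base 2282, chr12:12874151-12874180, plus strand: aaaagcgttggATGTAGCAttatgcaatta

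CDKN1B site at base 2355, chr12:12874224-12874253, plus strand: ttttaccttttATGTAGCAcataaactttg

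CDKN1C site at base 81, chr11:2905047-2905076, minus strand: tgggaccgttcATGTAGCAgcaaccggcgg

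BBC3 site at base 96, chr19:47724945-47724974, minus strand: ttctctgcaccATGTAGCAtactggactcc

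CDKN1C is another kinase inhibitor of the CDKN1B family, and BBC3 (PUMA) is a trigger of apoptosis. A site of any of these 3 forms was held by 20.9% of the first 2226 bases of human 3'-UTRs at least as long as that of KIT, by 29.1% at the 3266 bases of CDKN1B, by 6.32% at the 703 bases of CDKN1C and by 8.82% at the 978 bases of BBC3. TIMP3 and FOXO3 each held 1 of the shorter forms and ETS1 held 2, while these letters are not in the 1226 bases of ABCB1 (MDR1). These matches are descriptions of the sequence, and no mRNA was measured in these libraries.

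Both miRs had few reads in both lines, and most reads of the miR-221 hairpin were those of the strand with the asterisk, miR-221*. MiR-221 was read 12 times in K562 and 11 times in K562/ADM. MiR-222 had 5 reads and 1 read in the same order, the latter under the floor of 3 reads that a count of 0 allows. MiR-221* had 234 reads and 124 reads, and mir-221* had 8 and 5.

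**Figure D1:**
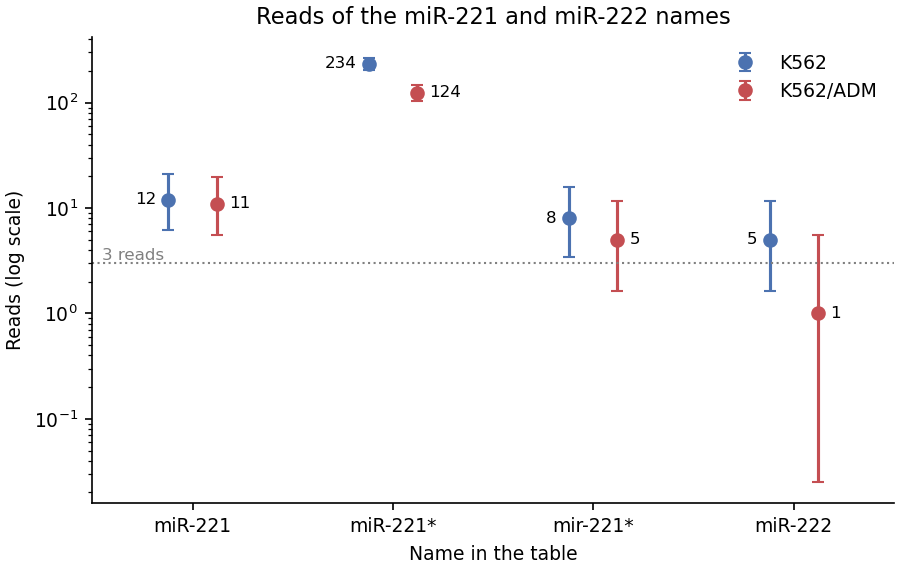
Reads (y axis, log scale) of the 4 names (x axis) in K562 (blue) and K562/ADM (red), with exact 95% Poisson intervals as bars and the floor of 3 reads as a dotted line. MiR-221* stands at 234 and 124 reads, above the other names, which have 12 reads or fewer.

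The K562 library held 7677738 reads assigned to names of the table and the K562/ADM library 6895193, of which miR-378 took 50.6% and 53.1%. In reads per 1000000 of these totals, miR-221 stood at 1.56 (95% interval 0.808 to 2.73) in K562 and 1.60 (0.796 to 2.85) in K562/ADM. MiR-222 stood at 0.651 (0.211 to 1.52) and 0.145 (0.00367 to 0.808). MiR-221* reached 30.5 (26.7 to 34.6) and 18.0 (15.0 to 21.4). The intervals here and below cover counting error only. By the study's methods, unique sequences seen once were left out before mapping, yet 100 names in K562 and 124 in K562/ADM, miR-222 among the latter, stand at exactly 1 recovered read. These counts go against that description, and how the filter was applied is not stated in the sources used.

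Ranked by reads, 502 of the 828 names with reads in K562 had more than miR-221 and 592 had more than miR-222. In K562/ADM, 464 of the 815 names with reads stood above miR-221 and 691 above miR-222. MiR-221* was in the upper part of the list, with 228 names above it in K562 and 224 in K562/ADM. The order of the 4 names was the same in both libraries, miR-221*, miR-221, mir-221* and miR-222. The first step of that order was larger than its counting error, while the neighbours below it were not apart. In K562 the ratio of miR-221 to mir-221* was 1.5 (95% interval 0.564 to 4.23) and that of mir-221* to miR-222 was 1.60 (0.462 to 6.22). In K562/ADM the same ratios were 2.20 (0.705 to 8.08) and 5.00 (0.559 to 236).

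**Figure D2:**
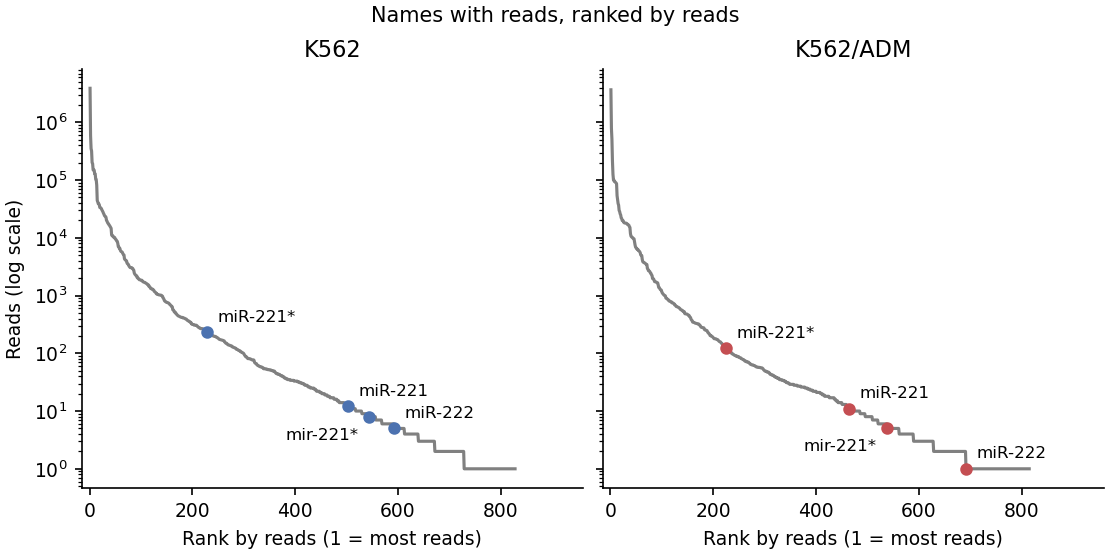
Reads of each name (y axis, log scale) against its rank by reads (x axis) in K562 (left) and K562/ADM (right). The grey line joins all names with reads, and the 4 points are the miR-221 and miR-222 names. MiR-221 lies below 502 names in K562 and 464 in K562/ADM, and miR-222 lies in the tail of both curves.

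The asterisk strand, miR-221*, made up nearly all of the reads of miR-221* and miR-221 together, with mir-221* (8 and 5 reads) left out. In K562 it had 19.5 times the reads of miR-221 (95% interval 11 to 38.3), or 95.1% of the reads of both strands (91.6 to 97.5, Clopper-Pearson). In K562/ADM it had 11.3 times the reads (6.09 to 23.2), or 91.9% (85.9 to 95.9). The ratio of strands in K562/ADM was 0.578 times that in K562, with an exact interval of 0.227 to 1.49 that holds 1, so that a change in strand use was not detectable at this depth. These ratios are within a library and do not depend on how the libraries are scaled.

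A predominance of the asterisk strand was uncommon among the other pairs compared. The asterisk marks the strand opposite the annotated mature miR, so that the naming itself bears on these shares. Hairpins whose strands are named by arm were not compared. The comparison took the pairs of names spelled miR or let-7, with and without the asterisk, that had at least 50 reads together, and called the asterisk strand the major one when the whole interval of its share lay over 50%. In K562 it was the major strand in 9 of 89 pairs (10.1%), and in K562/ADM in 9 of 86 (10.5%), the miR-221 pair included both times. The median share of the asterisk strand was 3.09% in K562 and 2.03% in K562/ADM. In K562 only miR-624* had a higher share than miR-221*, 217 reads against 9 for miR-624, or 96.0%. In K562/ADM, miR-624* (96.6%) and miR-202* (97.3%, from 71 reads against 2) were higher. The erythroid miR-144*, with 44262 reads in K562 against 5564 for miR-144, had a share of 88.8%. MiR-624*, miR-202* and miR-144* were picked out after their values were seen.

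**Figure D3:**
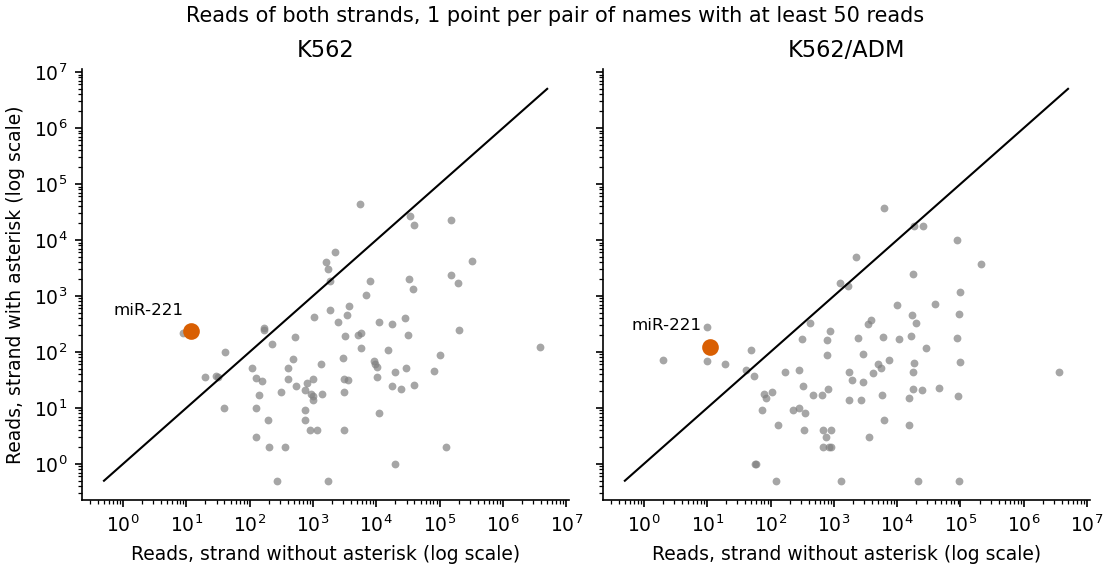
Reads of the strand with the asterisk (y axis) against the strand without it (x axis), with log scales on which 0 is placed at 0.5, in K562 (left) and K562/ADM (right). Each point is 1 pair of names with at least 50 reads together and the line marks equal reads. Most points lie below the line, and the miR-221 pair (orange) lies above it with 234 against 12 reads and 124 against 11.

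Between the lines, neither miR-221 nor miR-222 could be told from unchanged. MiR-221* was moderately lower in K562/ADM under all scalings but the upper quartile, where it could not be told from unchanged either. The ratio of K562/ADM to K562 used libraries scaled by median of ratios, not by the totals used for the levels above, and a name was called when it was past 2-fold in either direction and its 95% counting interval left out 1. By this rule 0 of the 4 names were called, against 15.6% of all 934 names called lower and 11.1% called higher. When the upper quartiles were set equal instead, all log2 ratios rose by 0.74 and the calls over all names went from 146 lower and 104 higher to 95 lower and 223 higher, and none of the 4 names was called under this or the other 6 scalings tried.

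MiR-221 had a ratio of 1.12 (95% interval 0.449 to 2.78). At 12 reads in K562, at least 21 reads or at most 2 reads in K562/ADM would have been needed for an interval without 1, which are ratios of 2.14 and 0.204. Smaller differences in miR-221 were therefore not detectable at this depth.

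MiR-221* had a ratio of 0.649 (0.518 to 0.810), or 1.54-fold lower (1.23 to 1.93). It is the only one of the 4 names whose interval left out 1 and the only one whose reads in the 2 libraries sum to 50 or more, and its interval lies within 2-fold. Under upper-quartile scaling its ratio was 1.09. The log2 ratio was then 0.12 with an interval of -0.21 to 0.44, so that it could not be told from unchanged. For mir-221* the ratio was 0.765 (0.197 to 2.65). Summed over its 3 names the miR-221 hairpin went from 254 reads to 140, with a ratio of 0.675 (0.545 to 0.833). Its log2 ratio was -0.57. Under upper-quartile scaling it was 0.18 (-0.13 to 0.48), which could not be told from unchanged.

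MiR-222 had a ratio of 0.245, or 4.08-fold lower, from 5 reads and 1 read, with an interval of 0.00518 to 2.19 that holds 1. No number of reads in K562/ADM, not even 0, would have placed its interval below 1. With 1 read added to each count the log2 ratio went from -2.03 to -1.29. MiR-221 had 2.40 times the reads of miR-222 in K562 (0.787 to 8.70) and 11 times in K562/ADM (1.60 to 473), and the second ratio was 4.58 times the first, with an interval of 0.396 to 236. Whether the neighbouring hairpins moved apart was thus not detectable. The 2 miRs with the shared seed together gave 17 reads in K562 against 12 in K562/ADM, a ratio of 0.864 (0.377 to 1.92).

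The other miRs that have been proposed to repress the same targets were mostly more abundant, and they did not move in 1 direction. Of 5 listed for KIT, 1 was called lower (20%), 1 higher (20%) and 3 were not called, beside 15.6% lower and 11.1% higher of all names. The median log2 ratio of the KIT list was -0.70 over the 4 with reads in both libraries. It was -0.05 over all 579 names with at least 10 reads together and reads in both. MiR-34a rose from 6 reads to 29, with a ratio of 5.92 (2.41 to 17.4). MiR-193b, at 548 and 227 reads, gave a ratio of 0.507 (0.433 to 0.593) that passed the 2-fold limit under 4 of the 7 other scalings. MiR-494 of the imprinted cluster on chromosome 14 fell from 394 reads to 1, a ratio of 0.00311 with a counting interval of 7.8e-05 to 0.0174. MiR-193a-3p had 36 and 22 reads and a ratio of 0.748 (0.419 to 1.31). All of these but miR-34a had more reads than miR-221 in K562. MiR-218 had 0 reads in K562, which allows up to 0.391 reads per 1000000, and 4 in K562/ADM.

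Of the 5 miRs listed for CDKN1B, 4 were measured, and miR-455-3p was not analysed here. Of the 4, 1 was called lower (25%) and 2 higher (50%), beside 15.6% and 11.1% of all names. MiR-24 rose from 8669 reads to 17093, for a ratio of 2.41 (2.35 to 2.48). MiR-196a, which lies in the HOX gene clusters, rose from 198 to 847 reads, a ratio of 5.24 (4.48 to 6.15). MiR-181a fell from 262 to 80 reads, a ratio of 0.374 (0.287 to 0.482), and was not called under upper-quartile scaling. For miR-148a the ratio was 0.921 (0.873 to 0.971), from 3218 and 2419 reads, and it was 1.54 under upper-quartile scaling. The least abundant of them in K562, miR-196a, had 198 reads where miR-221 had 12 and miR-222 had 5. The median log2 ratio of the 4 was 0.58, beside -0.05 over all names.

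**Figure D4:**
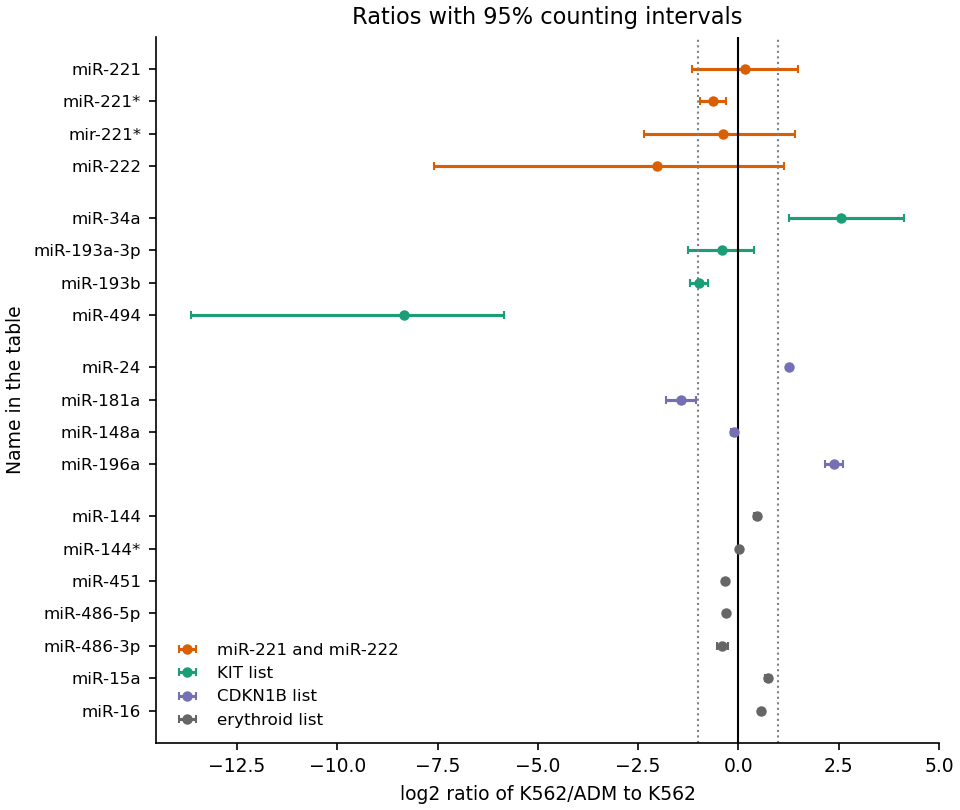
Log2 ratio of K562/ADM to K562 (x axis) for the 4 names and for the KIT, CDKN1B and erythroid lists (y axis), where a name had reads in both libraries. Points are ratios and bars show the 95% range that counting error allows. A solid line marks equality and dotted lines mark 2-fold differences. The bars of miR-221, mir-221* and miR-222 cross equality, and that of miR-221* lies between equality and a 2-fold fall.

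The miRs of erythroid maturation were abundant in both libraries beside the scarce miR-221 and miR-222. The 7 names had 1047 to 44262 reads in K562 and 648 to 36808 in K562/ADM. Of the 7, 0 were called in either direction, beside 15.6% of all names called lower and 11.1% called higher. With 7 names this count does not set the list apart from all names. The median log2 ratio of the list was 0.03, beside -0.05 over all names. MiR-451, which is needed for red cell maturation, gave a ratio of 0.793 (0.779 to 0.808) from 30470 reads in the parental line and 19738 in the resistant one. MiR-486-5p, with 15723 and 10404 reads, stood at 0.810 (0.790 to 0.831). For miR-144* the ratio was 1.02 (1.00 to 1.03) and for miR-16, with 16322 and 19707 reads, it was 1.48 (1.45 to 1.51). Under upper-quartile scaling miR-144, miR-15a and miR-16 were called higher.

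As a check of the labelled cell type, which cannot tell the lines from each other, the blood miRs miR-142-3p, miR-223, miR-451 and miR-144 had 1712 to 351692 reads in K562 and 1246 to 507475 in K562/ADM. Of 9 miRs typical of other cell types, miR-122 (liver), miR-1, miR-133a and miR-206 (muscle), miR-124 (neurons) and miR-205 (epithelium) had at most 10 reads in the parental and 22 in the resistant library. In the endothelial miR-126 there were 38960 and 18177 reads, in the mesenchymal miR-145 3045 and 6211, and in miR-143 204 and 1279. The 9 names summed to 42225 reads in the former and 25697 in the latter, and 2 were at 0 in K562 and 1 in K562/ADM. MiR-1 (10 and 22 reads), miR-143 and miR-145 were called higher, which is 33.3% of this list beside 11.1% of all names. Called lower were 0 of the 9, beside 15.6% of all names. The part of these 9 names in the values of miR-221 and miR-222 was not tested.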

How the data were processed

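The authors collapsed identical reads, by their methods omitted sequences seen once, and mapped the others with Bowtie in miRanalyzer. CASAVA 1.7.0, DESeq and the build hg18 are given in the submitters' processing notes. Each deposited signal value is a count of reads over the DESeq size factor of its library. Its other columns (fold changes and p-values of the authors) were not used. When each column was expressed in units of its lowest nonzero value, 100% of the entries were whole numbers (tolerance 0.001), and these reads were used. With 1 library per line no count model could be used, and p-values were not computed. Ratios were scaled by the median of ratios and given exact 95% intervals (Clopper-Pearson on the split of reads, Poisson for single counts, the conditional interval for ratios of ratios). Floors are 3 reads. The code was tested on simulated data.

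The members and lists were chosen with earlier results of these data known. The miRs named are the 4 rows of the pair, up to 4 of each list with the most reads, the 3 names with the nearest log2 ratio to each of miR-221 and miR-222 among those with at least 1000 reads, and, chosen after their values were seen, miR-218, the rest of the marker list of other cell types, the names whose call a scaling changes in the erythroid list, the called names and miR-532-3p and miR-660 among the X-chromosome neighbours, and 3 asterisk strands. Names were matched to RefSeq hairpin genes (GRCh38.p14, used for chromosomes and neighbours only) for 906 of 934 names. Positions and 3'-UTRs, without the stop codon, are from GENCODE on GRCh37. Alternatives were 7 scalings, other call rules, read minimums and 1 added read. TMM and upper-quartile factors came from edgeR 4.0.16 in R 4.3.3. The rest was done in Python 3.11.15 with pysam 0.24.0, pandas 2.3.3, scipy 1.17.1, numpy 2.4.6 and matplotlib 3.10.9.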

Additional observations from a re-analysis of the deposited data

How the results depend on the processing

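Of 43 log2 values of the pair recomputed under the alternatives, 41 stayed within the counting interval of the value reported. The other 2 moved under upper-quartile scaling, to 0.12 for miR-221* and 0.18 for the summed miR-221 hairpin, from -0.62 and -0.57. Under that scaling the interval of each held no change, so that the fall of both rests on the scaling. Over the 7 scalings the log2 ratio ran from 0.03 to 0.91 for miR-221, from -2.17 to -1.29 for miR-222 and from -0.52 to 0.36 for mir-221*. Over all names, upper-quartile scaling gave 95 lower and 223 higher, or 70.1% of the called names higher in place of 41.6%. Calls by 2-fold alone gave 275 lower and 236 higher, in place of 146 and 104. The whole interval past 2-fold left 104 lower and 61 higher, and at least 50 reads left 104 lower and 62 higher. By 2-fold alone 1 of the 4 names, miR-222, was past the limit. Leaving out mir-221* from the hairpin sum, an alternative chosen after seeing the data, gave -0.57.

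MiR-222* and the planned sum for the miR-222 hairpin gave no value of their own, since miR-222 was the only name of that hairpin analysed. No paired analysis was possible because there is 1 library per line. At this depth a difference in miR-221 was detectable at ratios of at least 2.14 or at most 0.204, and no fall of miR-222 was detectable.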

Other observations

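Of the 17 other names whose hairpins lie on the X chromosome within 10 Mb of MIR221, 3 were called higher in K562/ADM and 0 lower (17.6% and 0%), beside 11.1% and 15.6% of all names. Upper-quartile scaling gave 9 higher (52.9%, beside 23.9% of all names), and 4 other scalings gave 2. Their median log2 ratio was 0.65 over the 12 with reads in both libraries and at least 10 in all, beside -0.05 over all names. The called names were miR-502-3p, miR-501-3p and miR-188-5p, which belong to the cluster in CLCN5 and share their source. Most of the 17 names, and most of the 12, come from that same cluster. The shares and the median above therefore largely describe that cluster, not separate neighbours of MIR221. MiR-502-3p rose from 1307 to 3714 reads, with a ratio of 3.48 (95% interval 3.27 to 3.71), and miR-501-3p from 57 to 154, with a ratio of 3.31 (2.43 to 4.57). The ratio of miR-188-5p was 2.0 (1.57 to 2.55), at the limit, and it was not called under 4 of the 7 other scalings. Of the same cluster, miR-532-5p (1537 and 1962 reads) gave 1.56 (1.46 to 1.67), miR-362-5p (439 and 565 reads) gave 1.58 (1.39 to 1.79), and miR-500a (267 and 342 reads) gave 1.57 (1.33 to 1.85), and all 3 were called higher under upper-quartile scaling. In miR-532-3p (268 and 214 reads, ratio 0.978, 0.813 to 1.17) and miR-660 (164 and 144 reads, ratio 1.1, 0.854 to 1.35) of that cluster the interval held 1 and no scaling gave a call. Over the whole X chromosome, 15 of 80 other names were called higher (18.8%) and 1 lower (1.25%), and 36 (45.0%) and 1 under upper-quartile scaling, an alternative chosen after seeing the data.

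The names with log2 ratios nearest to that of miR-221, over 2 libraries and among 169 names with at least 1000 reads, were miR-320a (0.17), miR-142-5p (0.18) and miR-219-5p (0.19). Since 121 of the 169 lay inside the counting interval of miR-221, this likeness sets few names apart. For miR-222 the nearest were miR-3168 (-2.06), miR-19b-1* (-1.96) and mir-941-4* (-2.21), and 151 of the 169 lay inside its interval.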
